A study of Mus musculus with 6 samples.

Results

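The expression of 10 genes of the NRF2, glutathione and thioredoxin antioxidant systems was examined in mouse fetal liver macrophages with and without the aryl hydrocarbon receptor repressor. The genes were chosen by symbol: Nfe2l2, Keap1, Gclc, Gclm, Gsr, Txnrd1, Prdx1, Srxn1, Osgin1 and Nqo1. All 10 were found among the 16111 genes with an identifier, and 9 of them had enough counts to be tested. The libraries came from 3 wild-type (WT) and 3 AhRR-/- mice of the strain C57BL/6 RCC, and the second group is called Ahrr-deficient here, after the gene Ahrr. In both groups, liver cells of E13.5 fetuses (embryonic day) had been grown for 5 weeks in RPMI medium with 10% fetal calf serum, antibiotics, glutamine and 2% GM-CSF, a growth factor for macrophages, and non-adherent cells were taken for polyA RNA sequencing. The labels number the mice of each genotype and do not say how the allele was made or whether the fetuses were littermates, so the p-values measure the spread between these 6 cultures.

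NRF2, the product of Nfe2l2, is a transcription factor that is held at a low level by KEAP1, an adaptor that presents it for ubiquitination. Oxidants and electrophiles modify KEAP1, NRF2 accumulates, and with a small MAF protein it binds antioxidant response elements near genes for glutathione synthesis, the thioredoxin system and detoxification. Macrophages make superoxide and hydrogen peroxide through NADPH oxidase and rely on these systems to keep glutathione and thioredoxin reduced. The aryl hydrocarbon receptor (AhR), which the repressor opposes, binds xenobiotic response elements, and Nqo1 is a textbook target of both AhR and NRF2.

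Library totals ran from 3556106 counts in Ahrr-deficient replicate 1 to 41668336 in Ahrr-deficient replicate 2, and the 3 WT libraries held 6300421 to 21939809. Levels are given as CPM, counts of the gene per 1000000 counts of the library. Ahrr, the targeted gene, had 4.60, 4.29 and 5.32 CPM in WT and 2.25, 2.57 and 1.21 CPM in Ahrr-deficient libraries 1 to 3 (log2 fold change, log2FC, -1.21 ± 0.26, SE; edgeR adjusted p 0.0151), so reads of the gene remained in all 3. The labels do not give which part of the gene is altered. The log2FC is Ahrr-deficient minus WT throughout. The call for Ahrr was lost without WT replicate 1 (edgeR adjusted p 0.0631) and without WT replicate 3 (0.0502). Over 15 alternatives the adjusted p ran from 2.18e-04, with no filter on low counts, to 0.0631. All 10 macrophage markers examined were among the named genes, with a summed level of 22590 to 28330 CPM in WT and 17640 to 24600 CPM in Ahrr-deficient libraries. Most of the sum was Lyz2, with 17419 to 22740 CPM in WT and 12440 to 19165 CPM in Ahrr-deficient libraries. Csf1r fell while Itgax and Mrc1 rose, and the other 7 did not pass the threshold. The log2FC was below 0 for 8 of the 10 and above 0 for 2. Cd68 and Marco, which did not pass, were also lower in every Ahrr-deficient library. Of other cell types, the 8 mast cell and basophil and the 6 lymphoid markers were not among the named genes, the 8 hepatocyte markers summed to at most 1.13 CPM, the 9 neutrophil markers to at most 2.698 CPM and the 7 stromal and endothelial markers to at most 10.8 CPM. The 9 erythroid markers summed to 13.49 to 23.0 CPM in WT and 2.86 to 4.96 CPM in Ahrr-deficient libraries, nearly all of it Epor, while none of the 4 globin genes was among the named genes. The 7 dendritic cell markers summed to 57.6 to 62.1 CPM in WT and 72.0 to 93.2 CPM in Ahrr-deficient libraries, most of it Clec9a. The other tested marker of that list, Zbtb46, was lower in every Ahrr-deficient library (4.22, 4.92 and 4.15 CPM, against 5.01, 5.56 and 5.88 CPM in WT; log2FC -0.32, not past the threshold), and the untested Xcr1 had 1 to 7 counts in every library. Of the other dendritic cell markers, Flt3, Ccr7, Cd209a and Siglech were not among the named genes. Epor and Clec9a thus moved with genotype, as did the called antioxidant genes below, and the part of such cells in those differences was not tested. In such bulk RNA, a change in the share of cells that express a gene and a change per cell cannot be told apart.

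Of the 9 tested genes, Txnrd1 rose, Gsr and Osgin1 fell, and 6 did not pass the test, which is edgeR's quasi-likelihood test with Benjamini-Hochberg adjustment over 11408 genes and a threshold of 0.05. The 3 genes of 9 are 33.3%, beside 19.6% of all tested genes that passed (9.62% higher and 9.95% lower). The members were chosen with earlier results of these data known, so this share is a description and not a test. At an unadjusted edgeR p under 0.05 there were 5 of 9, beside 4087 of all 11408 tested genes. The median log2FC of the 9 genes was -0.01, beside 0.01 over all tested genes. In 5 of the 9 genes (55.6%) the libraries of the groups did not overlap in CPM, beside 36.6% of all tested genes. These were 3 higher and 2 lower in Ahrr-deficient libraries, beside 2721 higher and 1460 lower of all tested genes. Among the higher ones, Srxn1 overlapped once the totals were scaled by the TMM factors. The count of called members was 1 in the fit without WT replicate 1, 5 in the fit without Ahrr-deficient replicate 1, and between 2 and 4 when any other library was left out. Over all tested genes the count was 2232 with all libraries, 694 without WT replicate 1 and at most 3857 with a library left out.

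**Figure D1:**
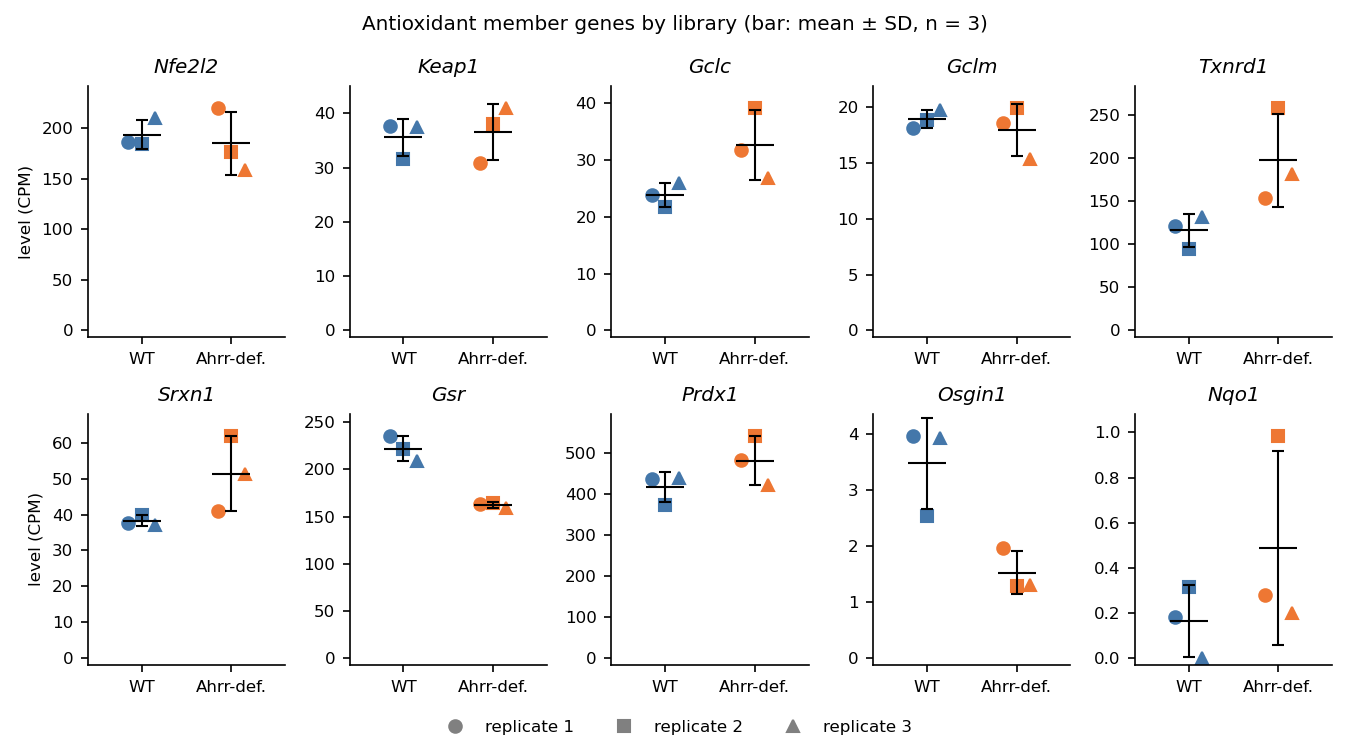
Level of each of the 10 antioxidant genes in CPM (vertical axis from 0) in WT (blue) and Ahrr-deficient (orange) libraries, with 1 symbol for each of the 3 replicates and a bar for the mean ± SD (n = 3). Gsr and Osgin1 lie lower and Txnrd1 and Gclc higher in every Ahrr-deficient library, the groups overlap for Nfe2l2, Keap1, Gclm, Prdx1 and Nqo1, and Srxn1 lies only just apart in CPM and overlaps after TMM scaling.

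The regulators Nfe2l2 and Keap1 did not pass the test. Nfe2l2 (ENSMUSG00000015839.6, chromosome 2, 75675513 to 75704641, minus strand, GRCm38) had 187, 184 and 209.7 CPM in WT and 219.6, 176 and 158 CPM in Ahrr-deficient libraries 1 to 3. Ahrr-deficient replicate 1 held the highest and replicate 3 the lowest of the 6 values, so the Ahrr-deficient group spanned all of the WT values. The means were 193 ± 14.2 CPM (SD, n = 3) and 185 ± 31.5 CPM (SD, n = 3), with a log2FC of -0.14 ± 0.13 (SE; edgeR adjusted p 0.442). Without Ahrr-deficient replicate 1 the log2FC was -0.30 and passed the threshold (edgeR adjusted p 0.0178, in a range of 0.0178 to 0.828 over 16 alternatives).

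Keap1 (ENSMUSG00000003308.15, chromosome 9, 21229730 to 21239361, minus strand) had 37.6, 31.6 and 37.5 CPM in WT and 30.9, 38.1 and 41.0 CPM in Ahrr-deficient libraries. The groups overlapped, with a log2FC of -0.01 ± 0.11 (SE; edgeR adjusted p 0.948), and the sign differed between alternatives, none of which passed the threshold. Exons of Keap1 overlap the antisense gene Gm16754 by 510 bases, and since the strand setting of the counting is not stated, reads of both cannot be told apart. Within each library there were 4.96, 5.82 and 5.59 Nfe2l2 counts per Keap1 count in WT and 7.10, 4.63 and 3.86 in Ahrr-deficient libraries 1 to 3. The last group lay on both sides of the WT ratios.

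Glutathione is made in a first, rate-limiting step by glutamate-cysteine ligase, which consists of the catalytic subunit GCLC and the modifier subunit GCLM. Neither subunit passed the test, and only the libraries of Gclc did not overlap. Gclc (ENSMUSG00000032350.9, chromosome 9, 77754535 to 77794485, plus strand) had 23.8, 21.7 and 25.9 CPM in WT and 31.8, 39.1 and 26.9 CPM in Ahrr-deficient libraries. Every Ahrr-deficient value was above every WT value, with the smallest gap between Ahrr-deficient replicate 3 and WT replicate 3. The log2FC of 0.40 ± 0.14 (SE) did not pass the threshold (edgeR adjusted p 0.0737), but did without Ahrr-deficient replicate 3 (0.52, edgeR adjusted p 0.0361). Over 16 alternatives the adjusted p ran from 0.0194, with no filter on low counts, to 0.309. Without Ahrr-deficient replicate 2, the library with the highest level, the log2FC was 0.21.

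Gclm (ENSMUSG00000028124.15, chromosome 3, 122245557 to 122270732, plus strand) had 18.2, 18.9 and 19.8 CPM in WT and 18.6, 19.9 and 15.4 CPM in Ahrr-deficient libraries. The groups overlapped, and the log2FC was -0.13 ± 0.13 (SE; edgeR adjusted p 0.479). Exons of Gclm overlap Gm17494 on the opposite strand and the pseudogene Gm6061 on the same strand. Within each library there were 1.31, 1.15 and 1.31 Gclc counts per Gclm count in WT and 1.71, 1.97 and 1.75 in Ahrr-deficient libraries 1 to 3. The groups of this ratio, which does not depend on library scaling, did not overlap. It was computed after the values of both genes were known and is given as a description.

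Glutathione reductase, encoded by Gsr, and thioredoxin reductase 1, encoded by Txnrd1, both use NADPH to return their partner to the reduced state, and their transcripts moved in opposite directions. Gsr (ENSMUSG00000031584.16, chromosome 8, 33652523 to 33698163, plus strand) had 235, 221 and 209 CPM in WT and 163, 164 and 159 CPM in Ahrr-deficient libraries. The lowest WT value was well above the highest Ahrr-deficient value, and the Ahrr-deficient libraries lay close together. The mean was 222 ± 13.1 CPM in WT and 162 ± 2.83 CPM in Ahrr-deficient libraries (SD, n = 3), with a log2FC of -0.53 ± 0.09 (SE; edgeR adjusted p 0.00629). Gsr passed the threshold in all 16 alternatives, with adjusted p-values of 2.93e-05 to 0.0421.

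Txnrd1 (ENSMUSG00000020250.10, chromosome 10, 82833951 to 82897712, plus strand) had 122, 94.8 and 132 CPM in WT and 154, 258 and 182 CPM in Ahrr-deficient libraries. The groups did not overlap, and Ahrr-deficient replicate 1 lay nearest to WT. The mean was 116 ± 19.4 CPM in WT and 198 ± 54.1 CPM in Ahrr-deficient libraries (SD, n = 3), with a log2FC of 0.71 ± 0.17 (SE; edgeR adjusted p 0.0211). The 3 Ahrr-deficient values followed the order of the library totals. Those of Srxn1, Mafg and Phgdh, given below, did so too, while those of Gclc and Slc7a11 did not and those of Osgin1 ran in the reverse order. In WT the values of Phgdh followed the totals, and those of Txnrd1, Srxn1 and Mafg did not. With all libraries thinned to the smallest total the log2FC of Txnrd1 was 0.62 (edgeR adjusted p 0.0225). Thinning evens the totals and leaves the expected CPM of each library as it was. A link between level and library total was thus not tested. The call was lost without WT replicate 1, 2 or 3 (edgeR adjusted p 0.0793, 0.0847 and 0.0501), and the log2FC was 0.47 without Ahrr-deficient replicate 2. Over 16 alternatives the adjusted p ran from 1.18e-09 to 0.0847. The lowest was from the fit with no filter on low counts, where the SE of Txnrd1 was 0.106, against 0.17 in the main fit. There were 0.518, 0.429 and 0.633 Txnrd1 counts per Gsr count in WT and 0.940, 1.58 and 1.15 in Ahrr-deficient libraries 1 to 3. That these groups did not overlap follows from the values of both genes given above and is no further result.

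**Figure D2:**
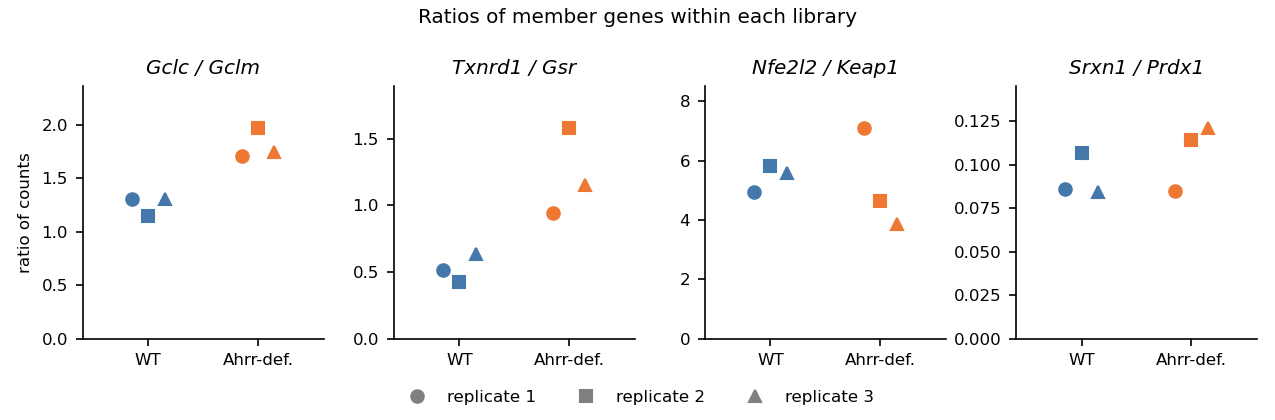
Ratio of the counts of 2 member genes within the same library (vertical axis from 0), for WT (blue) and Ahrr-deficient (orange), with 1 symbol per replicate. The groups do not overlap for Gclc over Gclm (1.15 to 1.31 against 1.71 to 1.97) or Txnrd1 over Gsr (0.429 to 0.633 against 0.940 to 1.58), and they overlap for Nfe2l2 over Keap1 and Srxn1 over Prdx1.

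Peroxiredoxin 1, encoded by Prdx1, reduces hydrogen peroxide with electrons from thioredoxin, and sulfiredoxin, encoded by Srxn1, restores peroxiredoxins that have been over-oxidized. Prdx1 (ENSMUSG00000028691.12, chromosome 4, 116685544 to 116700822, plus strand) had 437, 375 and 439 CPM in WT and 483, 542 and 421 CPM in Ahrr-deficient libraries. The groups overlapped through Ahrr-deficient replicate 3, and the log2FC was 0.14 ± 0.11 (SE; edgeR adjusted p 0.405). With offsets for GC content it was 0.01, and Prdx1 passed the threshold in 0 of 16 alternatives. Srxn1 (ENSMUSG00000032802.8, chromosome 2, 152105516 to 152111376, plus strand) had 37.6, 40.0 and 37.1 CPM in WT and 41.1, 61.9 and 51.2 CPM in Ahrr-deficient libraries. Ahrr-deficient replicate 1 lay only just above WT, and the groups overlapped once the totals were scaled by the TMM factors. The log2FC was 0.38 ± 0.14 (SE; edgeR adjusted p 0.0884). It passed in 4 of 16 alternatives, which included the fit without Ahrr-deficient replicate 1 (0.48, edgeR adjusted p 0.0132) and the fit with GC offsets (0.55, edgeR adjusted p 0.0247), in a range of 0.0132 to 0.316. Srxn1 counts per Prdx1 count were 0.0860, 0.107 and 0.0846 in WT and 0.0851, 0.114 and 0.121 in Ahrr-deficient libraries, and overlapped.

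Osgin1, an oxidative stress induced growth inhibitor known as an NRF2 target, fell the most of the 9 tested genes on the log2 scale. Osgin1 (ENSMUSG00000074063.10, chromosome 8, 119434124 to 119446256, plus strand) had 87, 16 and 28 counts in WT and 7, 54 and 13 counts in Ahrr-deficient libraries. These were 3.97, 2.54 and 3.92 CPM in WT and 1.97, 1.30 and 1.31 CPM in Ahrr-deficient libraries 1 to 3. The groups did not overlap. The mean was 3.48 ± 0.81 CPM in WT and 1.53 ± 0.38 CPM in Ahrr-deficient libraries (SD, n = 3), with a log2FC of -1.45 ± 0.25 (SE; edgeR adjusted p 0.00658). The call was lost without WT replicate 1 (edgeR adjusted p 0.0576) and without Ahrr-deficient replicate 2 (0.0545). Over the 14 alternatives that gave a value the adjusted p ran from 1.23e-04, with no filter on low counts, to 0.0583.

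Nqo1, the gene of NAD(P)H quinone dehydrogenase 1 (ENSMUSG00000003849.8, chromosome 8, 107388225 to 107403206, minus strand), was close to the floor of detection and was not tested. It had 4, 2 and 0 counts in WT and 1, 41 and 2 counts in Ahrr-deficient libraries 1 to 3. The highest level was 0.984 CPM in Ahrr-deficient replicate 2 (exact 95% binomial interval 0.706 to 1.33), beside 0.182 CPM in WT replicate 1 (0.0497 to 0.467), the deepest WT library. In the other libraries the floor of 3 counts was 0.303 to 0.844 CPM, and their 4 intervals had upper limits of 0.517 to 1.57 CPM, so a level like that of Ahrr-deficient replicate 2 was within the upper limit in WT replicate 2 and Ahrr-deficient replicate 1 and above it in WT replicate 3 and Ahrr-deficient replicate 3. The difference is 1 library, not a group. These intervals cover counting error only.

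Levels of different genes were compared per length, as CPM per kilobase of exon (RPKM). In WT the order was Prdx1 (137 ± 11.99 RPKM, SD, n = 3), Gsr (80.5 ± 4.76), Nfe2l2 (51.0 ± 3.75), Txnrd1 (16.4 ± 2.74), Srxn1 (13.6 ± 0.55), Keap1 (7.58 ± 0.74), Gclc (6.33 ± 0.55), Gclm (3.01 ± 0.12), Osgin1 (1.30 ± 0.30) and Nqo1 (0.107 ± 0.103). The libraries of Txnrd1 and Srxn1 overlapped, as did those of Keap1 and Gclc, while all other neighbours in this order were apart. In Ahrr-deficient cells Gclc (8.66 ± 1.64 RPKM, SD, n = 3) stood above Keap1 (7.81 ± 1.1), again with overlapping libraries, and the order was otherwise the same. Gsr (58.8 ± 1.03 RPKM) and Nfe2l2 (48.7 ± 8.30), which were apart in WT, overlapped there, as did Osgin1 and Nqo1.

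Promoter windows are shown because Txnrd1 and Osgin1, whose windows match the letters of an antioxidant response element, were called in opposite directions. The other members with such a match, Nfe2l2, Gclm, Prdx1 and Srxn1, did not pass the test. The windows run from 250 bases before to 50 bases after a RefSeq transcript start (GRCm38.p6), and RefSeq windows were matched for 8 members, with 10 windows in all. There was none for Gclc or for the fallen gene Gsr. The sequence after the RefSeq start of Nfe2l2 was not found near the start of its transcripts in GENCODE M21. Both strands were searched for the core TGACNNNGC, its variant TGAGNNNGC and the xenobiotic core GCGTG, where N is any base. Below are the window of the risen gene Txnrd1 that holds an antioxidant form (chr10:82858956-82859255, plus strand) and that of the fallen gene Osgin1 (chr8:119436897-119437196, plus strand), 5′ to 3′, with all 3 motifs in capitals.
Txnrd1: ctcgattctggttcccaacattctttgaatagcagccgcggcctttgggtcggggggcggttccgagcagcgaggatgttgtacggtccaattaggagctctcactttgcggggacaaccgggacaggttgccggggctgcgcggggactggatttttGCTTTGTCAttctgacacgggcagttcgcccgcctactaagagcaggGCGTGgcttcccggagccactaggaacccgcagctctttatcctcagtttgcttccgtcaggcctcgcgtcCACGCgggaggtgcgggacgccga
Osgin1: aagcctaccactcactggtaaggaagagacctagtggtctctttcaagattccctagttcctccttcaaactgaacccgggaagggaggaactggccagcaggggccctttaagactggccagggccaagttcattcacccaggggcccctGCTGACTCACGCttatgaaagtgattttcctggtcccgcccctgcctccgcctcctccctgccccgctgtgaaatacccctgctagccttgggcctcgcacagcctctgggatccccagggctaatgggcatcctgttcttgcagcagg
The Txnrd1 window holds the core TGACAAAGC on the opposite strand and 2 xenobiotic cores, and its other 2 windows hold 1 xenobiotic core each and no antioxidant form. The Osgin1 window holds the variant TGAGTCAGC on the opposite strand, and it overlaps a xenobiotic core on that strand, so that they form 1 run of capitals. One or the other antioxidant form was in a window of 6 of the 8 members, which also include Nfe2l2 (TGACTCCGC), Gclm (TGACGGTGC), Prdx1 (TGACTCAGC and TGAGAACGC) and Srxn1 (TGACCTAGC, TGAGTCGGC and TGAGTCAGC). This was 6 of 10 windows, beside 27.8% of all 32851 RefSeq windows. The xenobiotic core was in 7 of 10, beside 32.4% of all windows, and these 7 include every window of Txnrd1. By gene they belong to Txnrd1, Keap1, Gclm, Srxn1 and Osgin1. The Keap1 window held only xenobiotic cores, and none of the 3 motifs was in the Nqo1 window. A match is a description of the letters and not a bound site.

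Genes whose levels across the 6 libraries were most like those of a member were ranked by the root mean square difference of centred log2 CPM over 10034 genes with a mean of at least 50 counts. For Nfe2l2 they were Ift81, Nsmce3 and Ppp1r12a, at 0.0332 to 0.0417, with log2FC values of -0.26, -0.16 and -0.11. The median gene was at 0.248, and a gene with the same level in every library would be at 0.172. For Osgin1, the tested member with the largest fold change, they were Grk3, Ms4a7 and Cbx7, at 0.115 to 0.121. The median gene was at 0.580, and a gene with the same level in every library would be at 0.554. The log2FC values of Grk3, Ms4a7 and Cbx7 were -1.17, -1.03 and -1.17, a direction that the choice by likeness to Osgin1 fixes. Every such comparison is over the same 6 libraries, so the compared genes share the differences in depth and genotype between them.

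The wider antioxidant network was read from 7 lists with 115 genes, of which 93 were tested. Of these, 24 (25.8%) passed the threshold, 7 higher and 17 lower, beside 19.6% of all tested genes, and the median log2FC was -0.10. The lists too were chosen with earlier results of these data known, so the called shares here and below are descriptions. The count was 7 without WT replicate 1, 13 without WT replicate 2, 15 without WT replicate 3, 47 without Ahrr-deficient replicate 1, 11 without Ahrr-deficient replicate 2 and 13 without Ahrr-deficient replicate 3. The number of all genes called moved as well. It was 2232 with all libraries, 694, 965 and 1107 without WT replicate 1, 2 and 3, and at most 3857 with a library left out. Named below with values are the 12 called genes with at least a 1.5-fold change and a mean of at least 50 counts, and the other 12 called genes were named after their values were seen.

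**Figure D3:**
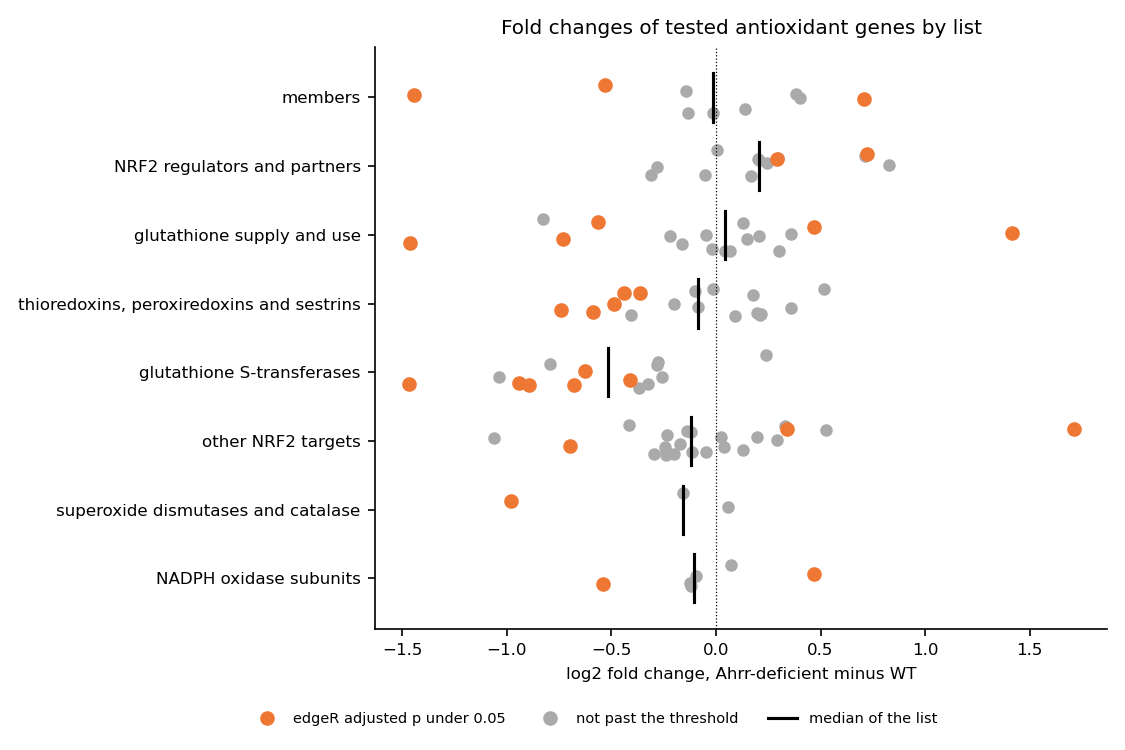
Log2 fold change (Ahrr-deficient minus WT, horizontal axis) of each tested gene of the member list and the 7 lists of related genes, with orange points for an edgeR adjusted p under 0.05, grey points for other genes and a black line for the median of the list. The median of the glutathione S-transferases is -0.52 with 6 called genes, all lower, and the 5 called genes of the thioredoxin list are also all lower.

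Among the 13 tested regulators and partners of NRF2, 2 (15.4%) rose and none fell, a called share no higher than the 19.6% of all tested genes. Mafg, which encodes a small MAF protein that pairs with NRF2, had 49.2, 47.6 and 47.1 CPM in WT and 65.2, 98.97 and 82.8 CPM in Ahrr-deficient libraries. The groups did not overlap, with a log2FC of 0.72 ± 0.13 (SE; edgeR adjusted p 0.00842), and Mafg passed in all 16 alternatives. Exons of Mafg overlap Sirt7 by 124 bases. Gsk3b, a kinase that marks NRF2 for degradation, rose by 0.29 on the log2 scale (edgeR adjusted p 0.0203), a call lost in 7 of 16 alternatives, among them those without WT replicate 1, 2 or 3 or Ahrr-deficient replicate 2 (adjusted p up to 0.184). Bach1, which encodes a repressor that competes with NRF2 for its elements, had 181, 169 and 186 CPM in WT and 208, 172 and 187 CPM in Ahrr-deficient libraries, and the groups overlapped (edgeR adjusted p 0.986).

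Of 17 tested genes of glutathione supply and use, 2 rose and 3 fell, a called share of 29.4% beside 19.6% of all tested genes (9.62% higher and 9.95% lower). Slc7a11, the cystine importer that supplies cysteine for glutathione, had 16.2, 15.6 and 18.9 CPM in WT and 41.3, 67.3 and 29.2 CPM in Ahrr-deficient libraries. All Ahrr-deficient values were above all WT values, with a log2FC of 1.42 ± 0.27 (SE; edgeR adjusted p 0.00915). Without WT replicate 1 the adjusted p was 0.0501, in a range of 4.44e-25 to 0.0501. The lowest was from the fit with no filter on low counts, where the SE was 0.131. The glutathione peroxidase gene Gpx3 had 129, 84.1 and 158 CPM in WT and 92.8, 62.4 and 82.0 CPM in Ahrr-deficient libraries, so the groups overlapped in CPM through WT replicate 2. Once the totals were scaled by the TMM factors, the groups of Gpx3 did not overlap. Its log2FC was -0.73 ± 0.20 (SE; edgeR adjusted p 0.0327), and the call was lost in 6 of 16 alternatives, which included the fits without WT replicate 1, WT replicate 3, Ahrr-deficient replicate 2 and Ahrr-deficient replicate 3 (adjusted p up to 0.113). Gpx1 (log2FC -0.57) and Ggt5 (-1.47) also fell and the glutaredoxin gene Glrx (0.47) rose, calls that were lost in 3 of 16, 7 of 15 and 6 of 16 alternatives, with WT replicate 1 and Ahrr-deficient replicate 2 left out for all 3, WT replicate 3 for Gpx1, and WT replicate 2 and Ahrr-deficient replicate 3 for Ggt5 and Glrx (adjusted p up to 0.0772, 0.106 and 0.11). The glutathione synthetase gene Gss, which follows Gclc in the pathway, had a log2FC of 0.15 ± 0.11 (SE; edgeR adjusted p 0.380), and its exons overlap Acss2 on the opposite strand.

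Of 17 tested thioredoxin, peroxiredoxin, methionine sulfoxide reductase and sestrin genes, 5 (29.4%) fell and none rose, beside 19.6% of all tested genes called and 9.95% lower. Txn1, which encodes thioredoxin 1, the substrate of thioredoxin reductase 1, had 978, 899 and 957 CPM in WT and 641, 578 and 566 CPM in Ahrr-deficient libraries. The groups were far apart, with a log2FC of -0.74 ± 0.11 (SE; edgeR adjusted p 0.00378), so Txn1 fell while Txnrd1 rose. Txn1 passed in all 16 alternatives. Sesn1, of the stress-induced sestrin family, had 17.9, 12.4 and 20.0 CPM in WT and 13.498, 11.1 and 11.8 CPM in Ahrr-deficient libraries, and WT replicate 2 lay inside the Ahrr-deficient range. After scaling by the TMM factors, the groups of Sesn1 did not overlap. Its log2FC was -0.59 ± 0.15 (SE; edgeR adjusted p 0.0279), a call lost in 6 of 16 alternatives, among them the fits without WT replicate 1, WT replicate 3, Ahrr-deficient replicate 2 and Ahrr-deficient replicate 3 (adjusted p up to 0.238). Prdx5 (log2FC -0.49), Txnip (-0.44), the inhibitor of thioredoxin, and Txnrd2 (-0.36), the mitochondrial thioredoxin reductase, also fell. Their calls were lost in 4, 8 and 11 of 16 alternatives, in all 3 without WT replicate 1, WT replicate 3 or Ahrr-deficient replicate 2, and for Txnip and Txnrd2 also without WT replicate 2 or Ahrr-deficient replicate 3 (adjusted p up to 0.0837, 0.128 and 0.392). Exons of each of these 3 overlap a gene on the opposite strand.

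The glutathione S-transferases, which attach glutathione to electrophiles, held the largest share of called genes among the lists with more than 10 tested genes. Of 14 tested, 6 (42.9%) fell and none rose, beside 19.6% of all tested genes called and 9.95% lower, and the median log2FC was -0.52. Gstm1 had 483, 402 and 467 CPM in WT and 342, 269 and 278 CPM in Ahrr-deficient libraries (log2FC -0.68 ± 0.12, SE; edgeR adjusted p 0.00711). Gstm4 had 42.0, 37.8 and 42.5 CPM in WT and 29.0, 26.7 and 28.5 CPM in Ahrr-deficient libraries (log2FC -0.63 ± 0.09, SE; edgeR adjusted p 0.00376). In both genes every Ahrr-deficient library was below every WT library. The microsomal enzyme gene Mgst2 had 44.3, 48.6 and 49.2 CPM in WT and 35.7, 23.4 and 22.0 CPM in Ahrr-deficient libraries, again without overlap (log2FC -0.94 ± 0.18, SE; edgeR adjusted p 0.00846). Gstt2 had 6.02, 4.60 and 6.87 CPM in WT and 1.12, 2.47 and 2.22 CPM in Ahrr-deficient libraries (log2FC -1.47 ± 0.23, SE; edgeR adjusted p 0.00487), with 4 counts in Ahrr-deficient replicate 1. Gstm1, Gstm4 and Mgst2 passed in all 16 alternatives, and Gstt2 in 15, with an adjusted p of 0.0591 after thinning (range 9.27e-07, with no filter on low counts, to 0.0591). Gstm2 (log2FC -0.89) and Gstp1 (-0.41) also fell, and both calls were lost without WT replicate 1, 2 or 3 or Ahrr-deficient replicate 3, and that of Gstp1 also without Ahrr-deficient replicate 2 (adjusted p up to 0.0876 and 0.144 over their alternatives). Genes of the Mu class are similar in sequence, so the split of reads between Gstm1, Gstm2 and Gstm4 is uncertain.

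Of 23 other tested NRF2 targets, 2 rose and 1 fell, a called share of 13% beside 19.6% of all tested genes. Phgdh, the first enzyme of serine synthesis, which has a pseudogene copy, had 17.7, 9.84 and 12.2 CPM in WT and 14.6, 69.0 and 49.7 CPM in Ahrr-deficient libraries. Ahrr-deficient replicate 1 lay inside the WT range, and the call at a log2FC of 1.71 ± 0.41 (SE; edgeR adjusted p 0.0220) was lost in 8 of 16 alternatives, among them the fit without WT replicate 1, WT replicate 2, WT replicate 3, Ahrr-deficient replicate 2 or Ahrr-deficient replicate 3 and the DESeq2 fit (adjusted p up to 0.0849). Fth1, the heavy chain of the iron store ferritin, had 25639, 25879 and 21852 CPM in WT and 15341, 16562 and 15890 CPM in Ahrr-deficient libraries. The groups did not overlap, with a log2FC of -0.70 ± 0.13 (SE; edgeR adjusted p 0.00860), and the call was lost without WT replicate 1, WT replicate 2 or Ahrr-deficient replicate 3 (adjusted p up to 0.0791). Abcc1, an exporter of glutathione conjugates, rose by 0.34 on the log2 scale (edgeR adjusted p 0.0451), a call lost in 11 of 16 alternatives, among them those without WT replicate 1, 2 or 3, Ahrr-deficient replicate 2 or Ahrr-deficient replicate 3 (adjusted p up to 0.166). Hmox1, the heme oxygenase 1 gene and a common marker of NRF2 activity, had 141, 128 and 145 CPM in WT and 126, 131 and 139 CPM in Ahrr-deficient libraries. Its groups overlapped in CPM, but every Ahrr-deficient library was below every WT library once the totals were scaled by the TMM factors. The difference did not pass the threshold (log2FC -0.14 ± 0.07, SE; edgeR adjusted p 0.202). The pentose phosphate and NADPH supply genes G6pdx, Pgd, Tkt, Taldo1 and Idh1 did not pass, with log2FC values of 0.13, -0.05, 0.04, -0.23 and -0.24.

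Of Sod1, Sod2 and Cat, which remove superoxide and hydrogen peroxide, only Sod1 passed the edgeR test, 1 of 3 genes beside 19.6% of all tested genes. Sod1, the cytosolic superoxide dismutase, had 98.2, 84.8 and 94.7 CPM in WT and 53.1, 45.8 and 50.6 CPM in Ahrr-deficient libraries. The groups were far apart, with a log2FC of -0.98 ± 0.09 (SE; edgeR adjusted p 7.85e-04), and Sod1 passed in all 16 alternatives with an adjusted p of at most 0.00824. Sod2, the mitochondrial enzyme, had a log2FC of 0.06 ± 0.11 (SE; edgeR adjusted p 0.753). Of 6 tested NADPH oxidase subunits, 2 (33.3%, beside 19.6% of all tested genes) passed, and Ncf1 rose and Ncf4 fell, with log2FC values of 0.47 ± 0.10 (SE; edgeR adjusted p 0.0148) and -0.54 ± 0.13 (SE; edgeR adjusted p 0.0195). The call for Ncf1 was lost without WT replicate 1 and that for Ncf4 without WT replicate 1, WT replicate 2, Ahrr-deficient replicate 2 or Ahrr-deficient replicate 3 (adjusted p up to 0.0846 and 0.0786). Exons of Ncf1 overlap Gtf2ird2 on the opposite strand. Cybb, the catalytic subunit, had 3042, 2971 and 3296 CPM in WT and 3909, 2509 and 2539 CPM in Ahrr-deficient libraries, with overlapping groups (edgeR adjusted p 0.661).

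**Figure D4:**
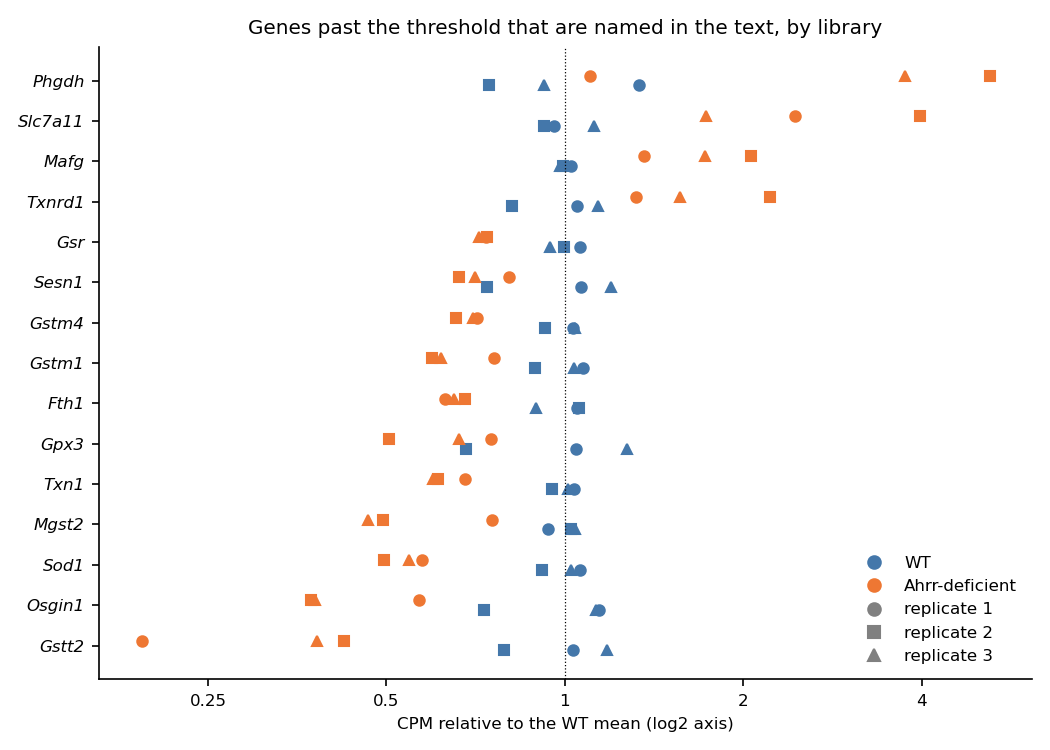
Level of each called gene that the text gives with values by library, as CPM divided by the mean of the 3 WT libraries (horizontal log2 axis), for the members Txnrd1, Gsr and Osgin1 and 12 related genes; blue is WT, orange is Ahrr-deficient and symbols give the replicate. In CPM the groups are apart for all of them except Phgdh, Gpx3 and Sesn1, in which a library of one group lies within the range of the other. After TMM scaling, which is not drawn, Gpx3 and Sesn1 are apart and Phgdh still overlaps.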

How the data were processed

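PolyA RNA libraries of 100 ng were read as single 75 bp reads, per the labels' protocols. CASAVA 1.8.2, fastp 0.20.0, STAR 2.7.10b, SAMtools 1.16.1, R 4.3.1, DESeq2 1.40.2 and the build mm10 are listed, without role or order, per the submitters' processing notes. The annotation, counting program and strand setting are not given in the sources used here. The authors deposited raw counts for 53465 features without identifiers and a normalized signal, counts divided by a size factor, for 16111 genes with identifiers. Multiplied by size factors recomputed from the raw counts, 100% of the deposited signal values were whole reads (tolerance 1e-04), and as a set they equalled the features with at least 10 counts in total. These reads were tested. The features without identifiers (0.0232% to 0.0511% of a library) count in the library totals and take part only in fits with no filter on low counts (DESeq2 included).

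edgeR 4.0.16 in R 4.3.3 was used with TMM scaling (factors 0.904 to 1.04), filterByExpr and genotype as the only term. It was also run on simulated counts in which all genes had the same dispersion, so that run does not cover genes of unequal spread. The SE is the log2 fold change over the root of F. CPM are counts over the library total, with a floor of 3 counts of 0.072 to 0.844 CPM. Reads carry no molecular identifiers, so intervals and floors cover counting error only. Alternatives were RLE and upper-quartile scaling, no filter, a mean count minimum of 50, limma-voom (limma 3.58.1), DESeq2 1.42.0, the replicate block, thinning to the smallest total and each library left out. Offsets for GC content (lowess span 0.3), without and with the block, were chosen after seeing the data. Positions and exon lengths are from GENCODE M21 (GRCm38), which held 16088 of the 16111 identifiers by stable ID, and promoter sequences are from RefSeq (GRCm38.p6). Sequences were searched and plots drawn in Python 3.11.15 (pandas 2.3.3, matplotlib 3.10.9).

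The members and lists were chosen with earlier results of these data known. Named related genes are called genes averaging at least 50 counts that changed at least 1.5-fold. Others were named after their values were seen.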

Additional observations from a re-analysis of the deposited data

How the results depend on the processing

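Of 587 values recomputed with 16 alternative settings, 447 did not change direction or call (for counts, were within 1.5 times), 111 lost the call, 7 gained one, 4 changed sign and 18 counts moved. The cause was not tested. The number of genes past the threshold was 2232, and 1390 with the replicate block, 1197 after thinning and 1203 with GC offsets and the replicate block, with 694 to 3857 when a library was left out. Of the antioxidant members 6 passed without a filter on low counts, against 3, and 1 to 5 when a library was left out. The fit without a filter called 2859 of 24416 features, against 2232 of 11408, and called Nqo1 at an edgeR adjusted p of 0.0383. Nqo1 had 41 counts in Ahrr-deficient replicate 2 and 0 to 4 in every other library. DESeq2 gave it a log2 fold change of 1.61 ± 1.24 (SE) and no adjusted p. Without a filter the SE of Phgdh was 0.132, against 0.413 in the main fit, and that of Gsr was 0.109, against 0.0892. The related genes past the threshold numbered 24, and 7 to 47 when a library was left out. Ahrr had a log2 fold change of -1.69 to -1.0 when a library was left out. Keap1 changed sign to 0.14 with GC offsets, 0.13 with GC offsets and the replicate block, 0.01 without WT replicate 1 and 0.0485 without Ahrr-deficient replicate 1, the range with a library left out being -0.1 to 0.0485. Upper-quartile scaling gave 41.8% of all called genes higher, against 49.1%.

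Correlations between same-numbered libraries, as deviations from the group mean, were -0.182, 0.0818 and 0.151 for numbers 1, 2 and 3, and only number 3 matched best with itself. With the replicate block 3 members (1 higher, 2 lower) and 17 related genes passed, and 1343 of the 1390 called genes were among the 2232. Osgin1 lost its call with GC offsets and the replicate block (adjusted p 0.0583). Osgin1 gave no value after thinning or with the 50-count minimum, and Ahrr none with the latter. The GC content of a gene correlated with its log2 fold change (Spearman -0.28 across tested genes, which are not independent replicates). Depth limits Nqo1 and, at 7 to 87 counts, Osgin1.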
